A study of Mus musculus with 9 samples.

Results

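The constant genes of the antibody and T cell receptor loci, with the antibody joining chain gene, were followed across leukaemia cells taken from lung, bone marrow and culture. The 9 genes were picked by symbol from the 55291 gene symbols counted in each library: Ighm, Ighd, Igkc, Iglc1, Iglc2, Jchain, Trac, Trbc1 and Trbc2. They were chosen because Ighm had reads in culture and the others were seen mainly in tissue, so every value of a tissue set against culture is a description of the choice and carries no test. Jchain is counted with the constant genes here although its product joins antibody units and is no constant region itself.

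Low-input RNA-seq libraries came from mouse acute myeloid leukaemia (AML) cells labelled Trp53(R172H/Δ), 1 mutant and 1 deleted allele of the p53 gene, which all 9 libraries share. The groups were cells from the lung of wild-type recipient mice (3 libraries), cells from the bone marrow of such mice (3 libraries) and cells grown in vitro (3 libraries). The labels give no sex, age, time after transfer, initiating lesion or sorting gate, and do not say whether the libraries of a group came from separate mice or cultures, so the p-values measure the spread between these libraries. Depth was 27485111 to 38761363 counted reads, so that 1 read was worth 0.0258 to 0.0364 CPM (counts per 1000000 counted reads). The Trp53 transcript itself stood at 304, 335 and 381 CPM in lung, 355, 307 and 299 CPM in bone marrow and 297, 295 and 293 CPM in culture, and counts per gene do not show which allele they came from.

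Lymphocytes assemble a variable region from gene segments by DNA recombination, and the transcript of the assembled segment is spliced to the exons of a constant gene. Ighm encodes the mu constant region of IgM and lies first among the heavy-chain constant genes, Ighd encodes delta, Igkc the kappa and Iglc1 and Iglc2 lambda light chains, and Jchain the chain that links the units of polymeric IgM and IgA. Trac and Trbc1 or Trbc2 encode the constant parts of the alpha and beta chains of the T cell receptor. A constant gene can also be transcribed without an assembled variable segment, and a count per gene adds the 2 kinds of transcript together.

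The start of the coding sequence shows which of these genes short reads can tell apart. The first 60 coding bases of the first constant exon are given 5′ to 3′ on the gene's own strand, from the GENCODE M21 transcripts on GRCm38. Ighm (chr12:113422671-113422730, minus strand) and Ighd (chr12:113416265-113416324, minus strand) are neighbours with unlike sequences:
Ighm: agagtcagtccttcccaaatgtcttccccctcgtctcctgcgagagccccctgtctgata
Ighd: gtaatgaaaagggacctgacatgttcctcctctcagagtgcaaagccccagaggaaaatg

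Trbc1 (chr6:41538218-41538277, plus strand) and Trbc2 (chr6:41546730-41546789, plus strand) are shown because they carry the same 60 bases, 0 of which differ, so reads here cannot be assigned to either gene:
Trbc1: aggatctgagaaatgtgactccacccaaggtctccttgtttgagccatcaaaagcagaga
Trbc2: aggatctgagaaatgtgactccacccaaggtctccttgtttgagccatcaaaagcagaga

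Iglc1 (chr16:19062012-19062071), Iglc2 (chr16:19198793-19198852) and the further lambda gene Iglc3 (chr16:19065622-19065681), all on the minus strand, are shown with capitals at the 13 of 60 positions where the 3 are not all alike. Iglc2 and Iglc3 differ at 4 of them:
Iglc1: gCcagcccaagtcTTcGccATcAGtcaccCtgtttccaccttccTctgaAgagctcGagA
Iglc2: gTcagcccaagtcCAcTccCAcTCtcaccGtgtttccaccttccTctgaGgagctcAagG
Iglc3: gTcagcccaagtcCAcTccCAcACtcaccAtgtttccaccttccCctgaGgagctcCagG

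Over the whole annotated transcripts, 40.5% of the 50-base stretches of Trbc1 and 44.0% of those of Trbc2 occur in the other gene, and 7.65% of those of Iglc2 occur in Iglc3. Ighm, Ighd, Igkc, Iglc1 and Trac share no 50-base stretch with another annotated gene, and Jchain shares 0.288%. Counts of Trbc1, Trbc2 and Iglc2 as single genes are therefore uncertain. The counting was named unstranded, and 2 members overlap a long noncoding gene: Igkc lies inside Gm30211 on the same strand and Iglc1 lies across from the antisense gene 2010309G21Rik. The antisense gene had 0 reads in all 9 libraries. Gm30211 had 1, 1 and 2 reads in lung, 2, 0 and 3 reads in bone marrow and 13, 15 and 4 reads in culture.

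Ighm, the mu heavy chain gene (chromosome 12, 113418558 to 113422730, minus strand, GRCm38), was the only member with more than 16 reads in any culture library. It had 2318, 372 and 2726 reads in lung libraries 1 to 3, 1682, 225 and 3125 reads in bone marrow libraries 1 to 3, and 8605, 10069 and 9123 reads in culture libraries 1 to 3. Scaled to library size, these were 60.7, 12.1 and 86.2 CPM in lung, 50.03, 6.97 and 77.7 CPM in bone marrow and 319, 310 and 324 CPM in culture. Every culture library stood above every tissue library, whereas the values of lung and bone marrow overlapped.

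Mean Ighm levels were 53.0 ± 37.6 CPM in lung, 44.9 ± 35.6 CPM in bone marrow and 318 ± 7.20 CPM in culture (SD, n = 3 each). Culture was thus 5.99-fold above lung and 7.08-fold above bone marrow by the ratio of means, values that the choice of members used. The coefficient of variation was 71.0% in lung and 79.4% in bone marrow, against 2.26% in culture. As bulk libraries, these cannot tell fewer cells carrying the transcript from less transcript per cell. Among all tested genes, culture lay above bone marrow without overlap for 32.9% and above lung without overlap for 32.9%.

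**Figure D1:**
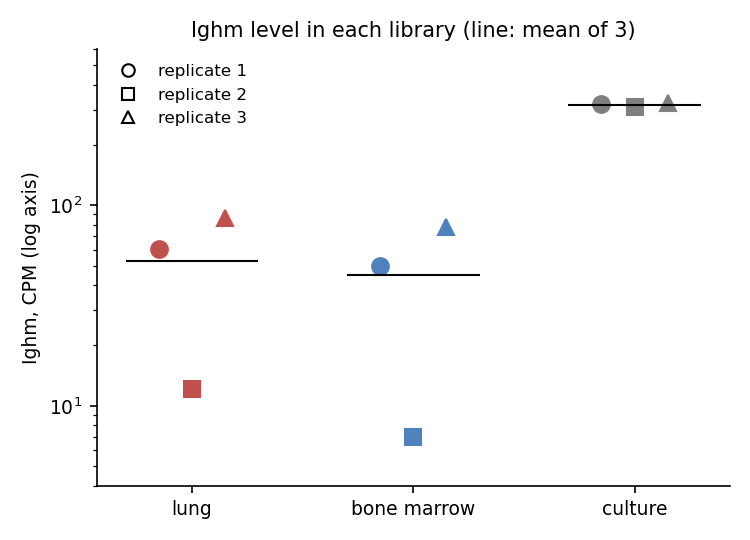
Ighm level in CPM (log axis) in each of the 9 libraries, grouped as lung, bone marrow and culture; circles, squares and triangles are replicates 1, 2 and 3, and each line is the mean of 3 libraries. The culture libraries lie at 310 to 324 CPM, and replicate 2 of each tissue, at 12.1 CPM in lung and 6.97 CPM in bone marrow, lies below the other two.

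Between the tissues, Ighm did not pass the test in the fit that took the libraries as unpaired. The log2 change of lung against bone marrow was 0.24 with a standard error of 0.92 (95% interval -2.004 to 2.48; edgeR quasi-likelihood test, Benjamini-Hochberg adjusted p = 0.877), so differences of up to 4-fold in either direction lie within the interval. The estimate turned to -0.27 without bone marrow replicate 2 and to -0.30 without lung replicate 3. The labels do not say that a replicate number marks a shared mouse.

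In both tissues it was replicate 2 that held the least Ighm. It lay 5.003-fold below the lower of the other two lung libraries and 7.18-fold below the lower of the other two bone marrow libraries. This reading was chosen after the values were seen. Of 9052 tested genes that reached 10 CPM in a tissue library, Ighm was the only 1 whose replicate 2 was at least 4-fold below both others in both tissues, and 0 genes met the same mark for replicate 1 or 3 or in the upward direction. At a 2-fold mark, Dock10 and Slc16a12 joined it, and between 0 and 6 genes met the mark for the other numbers and directions.

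Measured as replicate 2 minus the mean of replicates 1 and 3 on the log2 CPM scale, Ighm deviated by -2.57 in lung and by -3.15 in bone marrow. It ranked 2 from the lowest of 9052 genes in lung, after Slc16a12 at -2.60, and 1 from the lowest in bone marrow. Gm9429, a processed pseudogene on the X chromosome that shares no 50-base stretch with Ighm, was noticed for the same order of libraries: it had 11, 2 and 13 reads in lung, 8, 2 and 15 reads in bone marrow and 84, 130 and 101 reads in culture. For Trp53 and for Igkc, replicate 2 was the middle library in CPM in both tissues.

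**Figure D2:**
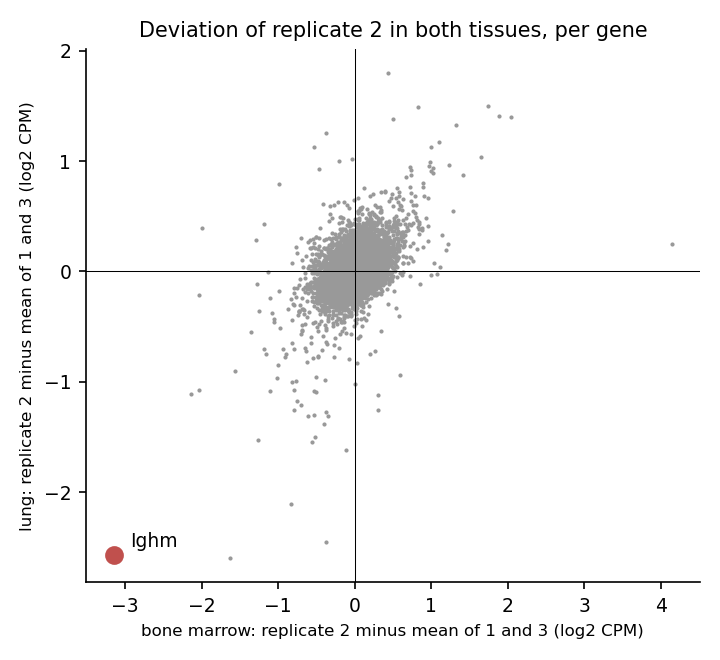
Deviation of replicate 2 from the mean of replicates 1 and 3 in log2 CPM for the 9052 tested genes that reached 10 CPM in a tissue library, lung on the vertical and bone marrow on the horizontal axis; each point is a gene. Ighm, the large marked point, lies at -2.57 in lung and -3.15 in bone marrow, in the lower left corner.

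Heavy-chain variable segments are what an assembled mu transcript would carry beside Ighm. Over 183 annotated Ighv segments the libraries held 49, 38 and 8 reads in lung, 21, 30 and 107 reads in bone marrow and 2, 1 and 0 reads in culture. Reads fell on 28 segments in lung, 42 in bone marrow and 3 in culture. Culture thus held the fewest variable-segment reads of the 3 groups together with the most Ighm reads.

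Per 1000 Ighm reads there were 21.1, 102 and 2.93 Ighv reads in lung, 12.5, 133 and 34.2 in bone marrow and 0.232, 0.0993 and 0 in culture. Replicate 2, low in Ighm, had the highest ratio in each tissue, while its Ighv reads themselves lay between those of the other two libraries. The Ighj joining segments had 2 reads in lung, 6 reads in bone marrow and 0 reads in culture, which allows up to 3 reads over the culture group. Annotated segments are of germline sequence, so reads across an assembled or mutated junction may not have been counted, and how many were lost is not known.

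**Figure D3:**
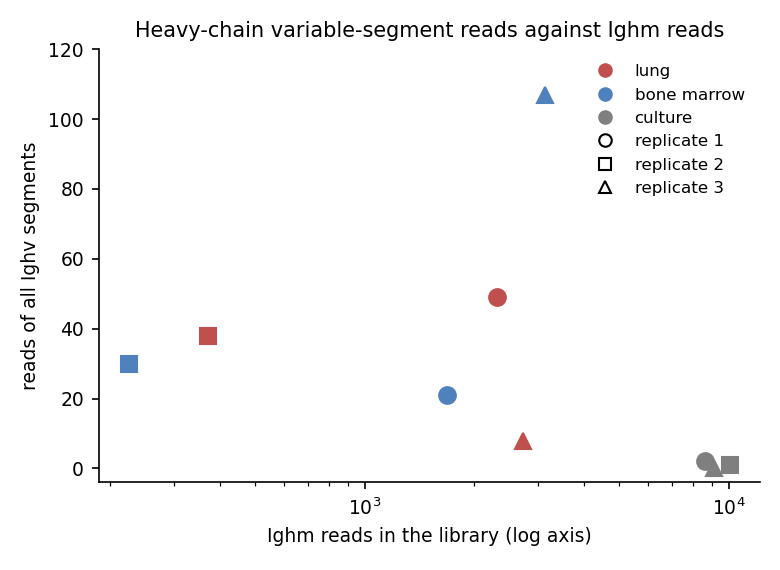
Summed reads of 183 Ighv segments (linear axis) against Ighm reads (log axis) in each library; red is lung, blue bone marrow and grey culture, and circles, squares and triangles are replicates 1, 2 and 3. The culture libraries lie at the lower right with 2, 1 and 0 Ighv reads beside 8605, 10069 and 9123 Ighm reads, and bone marrow replicate 3 lies highest at 107 Ighv reads.

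Single segments differed from library to library. Ighv1-64 had 14, 9 and 1 reads in lung and 0, 9 and 0 reads in bone marrow, and Igkv6-23, a kappa segment, had 9, 14 and 4 reads in lung and 0, 17 and 0 reads in bone marrow, with 0 reads of either in culture. In bone marrow replicate 1, Ighv9-3 held 15 of 21 Ighv reads and Igkv4-72 held 22 of 27 Igkv reads. Bone marrow replicate 3 spread its reads over more segments, 34 of Ighv and 35 of Igkv. Read numbers this small carry wide counting error.

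The other heavy-chain and light-chain members were scarce everywhere. Igkc, the kappa constant gene (chromosome 6, 70726435 to 70726966, plus strand), had 153, 104 and 56 reads in lung, 66, 70 and 212 reads in bone marrow and 8, 16 and 13 reads in culture. Every tissue library held more than every culture library, while the tissues overlapped. Means were 3.06 ± 1.16 CPM in lung, 3.13 ± 1.85 CPM in bone marrow and 0.417 ± 0.105 CPM in culture (SD, n = 3 each), which is 7.33-fold above culture in lung and 7.52-fold above it in bone marrow.

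Per kilobase of exon, which allows levels of different genes to be compared, Ighm stood at 28.1 CPM in lung, 23.8 CPM in bone marrow and 168 CPM in culture. Igkc stood at 5.75 CPM per kilobase in lung, 5.89 in bone marrow and 0.784 in culture. There were 15.2, 3.58 and 48.7 Ighm reads per Igkc read in lung, 25.5, 3.21 and 14.7 in bone marrow and 1076, 629 and 702 in culture. Between lung and bone marrow, Igkc differed by a log2 change of -0.04 with a standard error of 0.39 (95% interval -0.88 to 0.81; edgeR adjusted p = 0.952).

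Ighd, which mature B cells make from the same long transcript as Ighm by splicing, had 24, 24 and 9 reads in lung, 6, 4 and 9 reads in bone marrow and 1, 2 and 1 reads in culture. Lung libraries did not overlap those of bone marrow once scaled to depth, at 0.565 ± 0.255 CPM in lung and 0.175 ± 0.050 CPM in bone marrow (SD, n = 3 each). The gene was too low for the filter, which asked for about 0.314 CPM in at least 3 libraries, and has no test in the fit used throughout. In lung its order was not that of Ighm, since lung replicate 2, lowest there in Ighm, was highest in Ighd at 0.783 CPM. In bone marrow replicate 2 was lowest in both genes, at 0.124 CPM of Ighd.

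The lambda reads of bone marrow lay almost wholly in 1 library. Iglc1 had 3, 4 and 3 reads in lung, 2, 1 and 48 reads in bone marrow and 0 reads in each culture library. Iglc2 had 6, 5 and 3 reads in lung, 1, 0 and 43 reads in bone marrow and 0 reads in each culture library. Bone marrow replicate 3 held 48 of the 51 Iglc1 reads and 43 of the 44 Iglc2 reads of bone marrow, and also 43 of its 50 reads of the 3 Iglv segments. Mean CPM of Iglc1 was 2.96-fold the limit of 3 reads over the culture group in lung and 12.5-fold in bone marrow. For Iglc2 it was 4.04-fold that limit in lung and 10.7-fold in bone marrow. The counting error of the tissue reads is not included, so these ratios are not lower bounds.

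Jchain, the joining chain gene that plasma cells express strongly (chromosome 5, 88519809 to 88527891, minus strand), had 30, 38 and 7 reads in lung, 14, 16 and 50 reads in bone marrow and 4, 1 and 7 reads in culture. Lung overlapped both other groups, since lung replicate 3 and culture replicate 3 both had 7 reads, whereas every bone marrow library held more than every culture library. Means were 0.749 ± 0.510 CPM in lung, 0.718 ± 0.456 CPM in bone marrow and 0.143 ± 0.109 CPM in culture (SD, n = 3 each). The log2 change of lung against bone marrow was 0.04 with a standard error of 0.61 (95% interval -1.28 to 1.37; edgeR adjusted p = 0.968).

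The T cell receptor members, like Ighd, had most of their reads in lung. Trac, the alpha constant gene (chromosome 14, 54220521 to 54224206, plus strand), had 14, 11 and 21 reads in lung, 2, 1 and 5 reads in bone marrow and 0, 5 and 2 reads in culture. Lung lay above bone marrow and culture without overlap, and bone marrow and culture overlapped. Means were 0.463 ± 0.174 CPM in lung, 0.0716 ± 0.0478 CPM in bone marrow and 0.0750 ± 0.0770 CPM in culture (SD, n = 3 each).

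The mean of Trac in lung was 6.47-fold that in bone marrow, and the fitted log2 change was 2.57 with a standard error of 0.68. Only its lung libraries reached the level that the filter on low counts asks for, so that the gene could enter the filtered fit only by being high in lung, and its p there is given as no result. The log2 change ran from 2.23 without lung replicate 3 to 3.22 without bone marrow replicate 3.

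Trbc1 had 4, 1 and 9 reads in lung, 0, 3 and 4 reads in bone marrow and 0 reads in each culture library. Trbc2 had 4, 4 and 6 reads in lung and 0 reads in each bone marrow and each culture library. As the sequences above are shared, the sum of the pair is the safer reading, and it too was highest in lung. Against the limit of 3 reads over a group, mean CPM of Trbc2 in lung was 5.01-fold that of bone marrow and 4.14-fold that of culture. Mean CPM of Trbc1 was 4.11-fold the culture limit in lung and 1.87-fold in bone marrow. The counting error of the higher group is not included, so these ratios are not lower bounds.

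**Figure D4:**
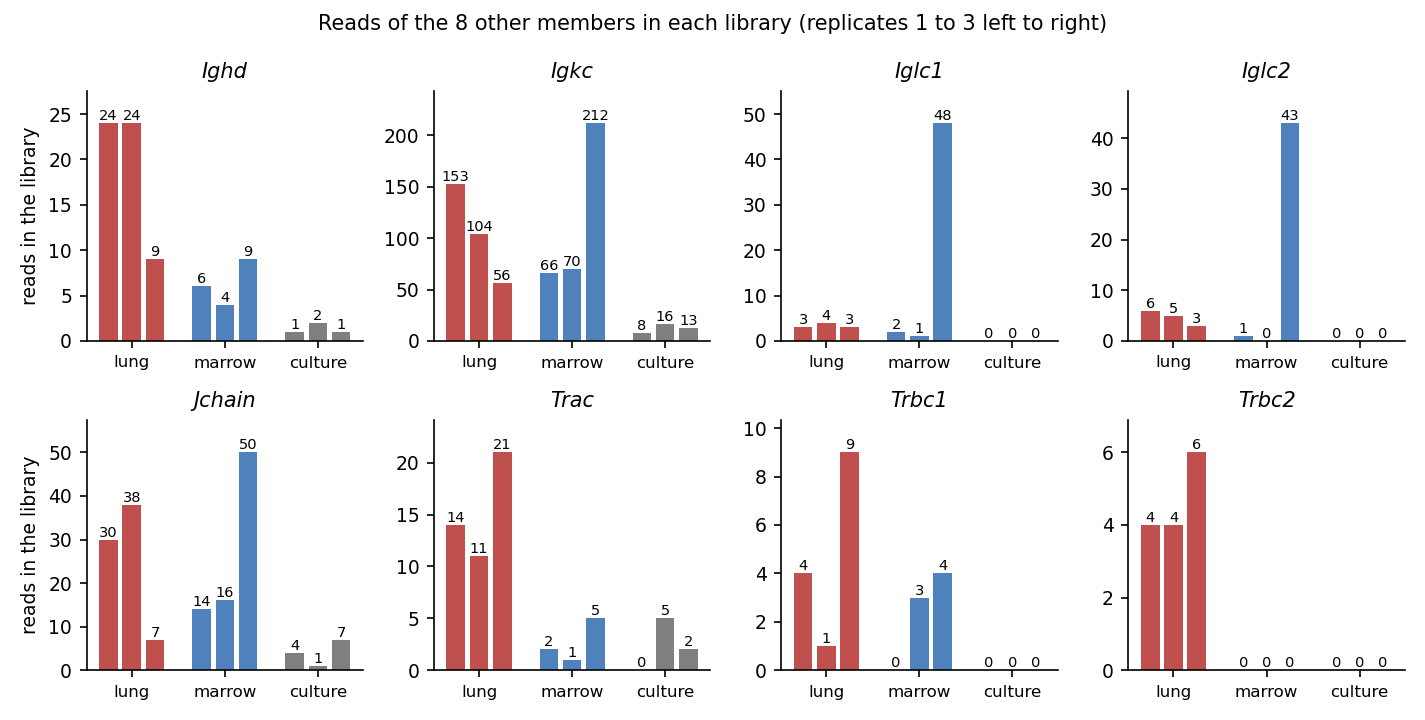
Reads of the 8 members other than Ighm in each library, 1 panel a gene with its own vertical axis from 0; bars are replicates 1 to 3 from left to right in lung (red), bone marrow (blue, labelled marrow) and culture (grey). Igkc, Iglc1, Iglc2 and Jchain are highest in bone marrow replicate 3, at 212, 48, 43 and 50 reads, and Trac and Trbc2 are highest in lung, at up to 21 and 6 reads.

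Set apart by presence in culture, the members fell into 3 kinds. Ighm was abundant in culture, with 27797 reads over the group. Igkc (37 reads), Jchain (12 reads), Trac (7 reads) and Ighd (4 reads) had a few culture reads, and Igkc lies wholly within the span of Gm30211. Iglc1, Iglc2, Trbc1 and Trbc2 had reads in tissue libraries and 0 in culture, which allows up to 0.0342 CPM over the culture group. The 8 members other than Ighm summed to 238, 191 and 114 reads in lung, 91, 95 and 371 reads in bone marrow and 13, 24 and 23 reads in culture. Ighm made up 90.7%, 66.1% and 96.0% of the member reads in lung, 94.9%, 70.3% and 89.4% in bone marrow and 99.8%, 99.8% and 99.7% in culture.

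Of the 9 members, 4 passed the filter on low counts and were fitted between lung and bone marrow. Ighm, Igkc and Jchain did not pass the test, and Trac, which entered through lung alone, is not counted. Over all 15066 tested genes, 14.2% were higher and 11.1% lower. Without the filter, where 8.79% of 30802 genes were higher and 5.74% lower, Ighd was higher in lung (log2 change 1.66, edgeR adjusted p = 0.0337), Trac was higher (2.58, adjusted p = 0.00314) and Iglc1 was lower (-2.09, adjusted p = 0.0199), while Iglc2 (adjusted p = 0.185) did not pass. Trbc1 and Trbc2 are given no test as single genes. The unfiltered fit was not repeated with libraries left out. In the filtered fit Trac did not pass without bone marrow replicate 2 (edgeR adjusted p = 0.0671) or lung replicate 3 (adjusted p = 0.0591) and with limma-voom (adjusted p = 0.0902). Of the bone marrow reads behind the Iglc1 call, 48 of 51 lay in replicate 3. Ighd, Trac and Trbc2 were the 3 members whose lung libraries all lay above bone marrow, with Trbc2 uncertain as a single gene. Among the 15066 genes passing the filter 18.5% did so. Ighd and Trbc2 did not pass that filter, so the share is of an unlike set of genes.

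The remaining constant genes of these loci were looked up from a list of 13, of which 2 were high enough to test. Igha, the constant gene of IgA, had 67, 172 and 23 reads in lung, 76, 55 and 120 reads in bone marrow and 0 reads in each culture library. Its means of 2.70 ± 2.57 CPM in lung and 2.32 ± 0.642 CPM in bone marrow (SD, n = 3 each) stand against a culture limit of 0.0342 CPM. With 0 reads in culture, Igha could enter the filtered fit only through the tissue libraries, so its p against culture is given as no result. Between the tissues Igha had a log2 change of 0.21 with a standard error of 0.66 (adjusted p = 0.845). Trgc1, a gamma chain constant gene, had 15, 18 and 21 reads in lung, 2, 9 and 17 reads in bone marrow and 8, 16 and 13 reads in culture, and passed in no comparison (edgeR adjusted p = 0.153 to 0.557).

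Ighg2c, an IgG constant gene, had 40 reads in lung replicate 1 and 0 reads in the 8 other libraries. Iglc3 had 3, 6 and 7 reads in lung, 1, 3 and 19 reads in bone marrow and 0 in culture, again most in bone marrow replicate 3. Variable segments of the T cell receptor did not go with their constant genes. Over 128 Trav segments there were 891 reads in lung, 1380 in bone marrow and 552 in culture, where Trac had 7 reads. Trav18 alone had 187, 122 and 118 reads in lung, 227, 128 and 193 reads in bone marrow and 49, 63 and 52 reads in culture, and Trbv13-2 had 62, 107 and 50 reads in lung, 36, 68 and 47 in bone marrow and 25, 40 and 27 in culture.

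Markers of the cell types that use these genes were read beside them. Of 17 listed B cell genes, 0 to 1 had no read in a lung library, 0 to 3 in a bone marrow library and 7 to 9 in a culture library. Cd79b, a signalling chain of the B cell receptor, had 30, 12 and 17 reads in lung, 11, 9 and 118 reads in bone marrow and 0 in culture. Ms4a1, which encodes the surface antigen CD20, had 23, 3 and 22 reads in lung, 2, 2 and 82 reads in bone marrow and 0 in culture, and Pax5 likewise had 0 culture reads. Cd79a, the partner of Cd79b, had 16, 13 and 14 reads in culture.

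The summed B cell list stood at 142 to 162 CPM in lung, 152 to 191 CPM in bone marrow and 102 to 104 CPM in culture, most of it Btk, a kinase that myeloid cells also express. Of its 9 tested genes 4 rose and 1 fell in lung against culture, and 6 rose and 0 fell in bone marrow against culture, 2 comparisons that share the culture libraries. Over all tested genes, 27.9% rose and 27.0% fell in lung against culture, and 30.7% rose and 29.8% fell in bone marrow against culture. The median log2 change of the list against culture was 2.50 in lung and 2.73 in bone marrow, against 0.02 and 0.05 over all tested genes. With each library left out in turn, Btk and Cd22 kept their calls in lung and Btk, Cd22 and Cd79b in bone marrow. Cd22 and Cd79b, with 1 and 0 reads over the culture group, could enter the fit only through tissue libraries. Btk rose by a log2 change of 0.56 in lung (edgeR adjusted p = 0.000155) and 0.72 in bone marrow (adjusted p = 1.27e-05). Lung against bone marrow, 0 rose and 1 fell, Cr2, a complement receptor (log2 change -1.42, adjusted p = 0.0241), a call that 3 of the 9 left-out libraries ended, bone marrow 2, bone marrow 3 and lung 3 (edgeR adjusted p = 0.0573 to 0.0607).

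Bone marrow replicate 3, the library richest in Igkc, Iglc1, Iglc2 and Jchain, was also richest in Cd79b and Ms4a1 and in Ptprc, the leukocyte antigen CD45, at 692 reads against 60 and 78 in the other bone marrow libraries. Genes of antibody assembly were found there too: the 8 genes listed for B cell progenitors summed to 3.06 CPM, against 0.654 and 0.619 CPM in the other bone marrow libraries, 0.474 to 0.891 CPM in lung and 0.154 to 0.482 CPM in culture. Rag1, which cuts the segments to be joined, had 15 reads there, 3 and 0 in the other bone marrow libraries and 0 in lung and culture. The 11 neutrophil genes summed to 2127 CPM in that library, 342 and 602 CPM in the other bone marrow libraries, 12.1 to 87.5 CPM in lung and 1.31 to 2.49 CPM in culture. The part of other cells in the member counts was not tested. In culture, Ighm stood at 310 to 324 CPM beside 0 reads of Cd79b, Ms4a1 and Pax5. Other genes of the B cell list had culture reads, among them Cr2 with 72 over the group, Cd79a with 43 and Btk with 8864. Of the 17 listed, 7 to 9 had no read in a culture library. Among bone marrow libraries, Ighm too was highest in replicate 3, at 77.7 CPM. The listed B cell genes did not share the same order over the lung libraries. Lung replicate 2 was the lowest lung library in Ighm, Cd79b and Ms4a1, at 12.1 CPM, 12 reads and 3 reads. Cd79a had 44, 31 and 24 reads in lung and Cr2 17, 13 and 4 reads, both lowest in replicate 3. Ighd and Jchain were highest in lung replicate 2. Lung replicate 3 was highest in Ighm but not in Cd79b, and Ms4a1 had 23, 3 and 22 reads in lung. Bone marrow replicates 1 and 2 held 11 and 9 reads of Cd79b beside 50.03 and 6.97 CPM of Ighm.

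Of 12 plasma cell genes 8 were tested, 4 rose and 2 fell in lung against culture, and 4 rose and 3 fell in bone marrow against culture. Those shares stand beside 27.9% rising and 27.0% falling over all tested genes in lung, and 30.7% and 29.8% in bone marrow. Prdm1, a regulator of plasma cell formation, stood at 2.88 ± 0.330 CPM in lung, 3.28 ± 0.820 CPM in bone marrow and 36.1 ± 1.57 CPM in culture (SD, n = 3 each). It fell by log2 changes of -3.65 in lung and -3.47 in bone marrow against culture (edgeR adjusted p = 3.25e-09 and 2.76e-09). Mzb1 and Tnfrsf17, genes typical of plasma cells, had 0 to 1 reads in every library, and the list summed to 340 to 396 CPM in lung, 315 to 356 CPM in bone marrow and 338 to 356 CPM in culture. In lung against bone marrow 1 gene rose, Xbp1 (log2 change 0.48, adjusted p = 0.0485), a call that ended when any 1 of 7 of the 9 libraries was left out.

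T cell and natural killer cell genes were read beside Trac. Of 20 T cell genes 8 were tested, and 2 rose and 0 fell in lung against bone marrow: Tcf7, a transcription factor (log2 change 1.33, edgeR adjusted p = 0.00709), and Cd3g, a signalling chain of the receptor (1.502, adjusted p = 0.0404), whose call ended when any 1 of 8 of the 9 libraries was left out. Over all tested genes 14.2% rose in that comparison. Tcf7 had its highest mean in culture, at 1.48 ± 0.336 CPM in lung, 0.587 ± 0.149 CPM in bone marrow and 2.04 ± 0.270 CPM in culture (SD, n = 3 each). Cd3e had 9, 6 and 8 reads in lung, 0, 1 and 2 reads in bone marrow and 0 in culture, and Cd8b1 had 5, 10 and 12 reads in lung, 0, 0 and 1 reads in bone marrow and 0 in culture. The list summed to 76.7 to 102 CPM in lung, 96.1 to 106 CPM in bone marrow and 33.2 to 33.6 CPM in culture, and 1 to 3, 4 to 7 and 11 to 13 of its genes had 0 reads in libraries of these groups.

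Of 11 natural killer cell genes 5 were tested, and Gzmb (log2 change 3.63, edgeR adjusted p = 3.28e-07) and Gzma (3.56, adjusted p = 0.00565), granule proteases of cytotoxic lymphocytes, rose in lung against bone marrow, with 0 genes lower. Over all tested genes, 14.2% rose and 11.1% fell in that comparison. The list summed to 12.2 to 15.1 CPM in lung, 2.20 to 5.05 CPM in bone marrow and 3.29 to 4.45 CPM in culture. Gzmb was itself present in culture at 3.23 ± 0.652 CPM (SD, n = 3). Lung libraries also held reads of 9 lung epithelial genes, summing to 84.0, 38.8 and 14.8 CPM in lung, 0.572 to 0.712 CPM in bone marrow and 0.556 to 1.02 CPM in culture. The part of T cells, natural killer cells or lung tissue in the Trac result was not tested.

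Plasmacytoid dendritic cells, which can carry partly assembled heavy-chain genes, were checked with 8 genes, of which 5 were tested. In lung against culture 3 rose and 2 fell, where 27.9% and 27.0% of all tested genes did so. In bone marrow against culture 3 rose and 2 fell, beside 30.7% and 29.8% of all tested genes. The list summed to 200 to 204 CPM in lung, 219 to 231 CPM in bone marrow and 275 to 296 CPM in culture. In each culture library 4 of the 8 genes had 0 reads, so the culture sum rests on the others. In lung 0 to 1 and in bone marrow 1 to 2 genes had 0 reads in a library. Relative to bone marrow, 0 rose in lung and 1 fell, Bcl11a (log2 change -0.22, edgeR adjusted p = 0.0412), a call that ended when any 1 of 7 of the 9 libraries was left out. Siglech, a defining marker, had 9, 7 and 12 reads in lung, 4, 9 and 25 reads in bone marrow and 0 in culture. Of 10 macrophage genes 9 were tested, and 6 fell and 1 rose in lung against bone marrow, where 11.1% of all tested genes fell and 14.2% rose. The most abundant of them was Slc40a1, an iron exporter (log2 change -0.56, edgeR adjusted p = 0.00339). The 1 that rose was Csf1r, a growth factor receptor of macrophages (1.76, adjusted p = 0.0383), a call that ended when any 1 of 8 of the 9 libraries was left out. Slc40a1 was also lower in lung than in culture, a call that held with each library left out. The macrophage list summed to 149 to 211 CPM in lung, 242 to 264 CPM in bone marrow and 225 to 248 CPM in culture. In culture libraries 5 to 6 of its genes had 0 reads.

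Transcription factors known to bind the heavy-chain enhancers were read beside Ighm, 16 genes that all passed the filter. Against culture, where Ighm was highest, 4 rose and 6 fell in lung and 3 rose and 8 fell in bone marrow, with 27.9% and 27.0% of all tested genes rising and falling in lung and 30.7% and 29.8% in bone marrow. Spi1, which encodes PU.1, stood at 13.9 ± 3.55 CPM in lung, 10.5 ± 3.47 CPM in bone marrow and 3.94 ± 0.761 CPM in culture (SD, n = 3 each) and rose in both tissues (log2 changes 1.82 and 1.42, edgeR adjusted p = 8.04e-05 and 0.000428). Ets1 rose likewise (1.34 and 0.65, adjusted p = 1.94e-06 and 0.000539). Tcf4, an E protein, fell in both (-0.73 and -0.82, adjusted p = 0.000286 and 8.17e-05), and Tfe3, which binds an E-box motif, fell in bone marrow (-1.09, adjusted p = 2.51e-07) and in lung (-0.22, adjusted p = 0.0455, a call that ended when any 1 of 5 of the 9 libraries was left out).

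Lung against bone marrow, where Ighm did not pass, 6 of the 16 factors rose and 0 fell, with 14.2% of all tested genes rising and 11.1% falling. The 6 became 3 without lung replicate 2 or bone marrow replicate 2 and 3 to 8 over all left-out libraries, and Ets1, Pou2f2 and Tfe3 kept their calls with each library left out. Their log2 changes were 0.69 for Ets1, 1.37 for Pou2f2, the lymphoid octamer factor, and 0.87 for Tfe3 (edgeR adjusted p = 0.00216, 0.00604 and 2.40e-05). The median of the list was 0.29, against -0.01 over all tested genes. A gene's level says nothing of the factor's binding.

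Of 29 non-segment genes within 500 kb of Ighm on either side, 12 were tested. Against culture 5 rose and 1 fell in lung, and 4 rose and 2 fell in bone marrow, beside 27.9% and 27.0% of all tested genes in lung and 30.7% and 29.8% in bone marrow. Mta1, a chromatin protein gene, was the 1 that fell in both, at 131 ± 17.9 CPM in lung, 134 ± 13.4 CPM in bone marrow and 181 ± 5.86 CPM in culture (SD, n = 3 each). Crip2 and Crip1, which encode LIM-domain proteins, were the 2 that rose in lung against bone marrow (log2 changes 0.59 and 0.88, edgeR adjusted p = 0.00161 and 0.000141).

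The genes most like Ighm over the 9 libraries, by Pearson correlation of log2 CPM among 11854 genes of at least 1 CPM on average, were Gm5113 (0.982), Ache (0.980), Rdm1 (0.980), Dsn1 (0.975) and Csgalnact1 (0.968). These correlations describe libraries that fall into culture and tissue, and carry no test. The changes themselves were much smaller than in Ighm. Ache, which encodes acetylcholinesterase, had 39.3, 30.9 and 47.9 CPM in lung and 40.0, 27.3 and 48.1 CPM in bone marrow. In culture Ache had 69.5, 68.1 and 59.3 CPM. It was lowest in replicate 2 of each tissue, which its choice by correlation over the same 9 libraries favours, so this is no separate likeness.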

How the data were processed

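RNA-seq was measured in 9 libraries. The files hold whole-number read counts for each gene symbol as the authors deposited them, made with bcl2fastq and STAR on mm10, per the submitters' processing notes. How reads were counted, and with which versions, is not given in the sources used here. Per the labels' protocols, RNA from few cells was amplified with the SMART-seq v4 and ThruPLEX kits, without molecular identifiers, so read numbers and limits cover counting error only. Symbols were matched to GENCODE M21 (GRCm38; 53292 of 55291).

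Counts were scaled with TMM to CPM. Genes passing filterByExpr (15066) entered 1 edgeR 4.0.16 quasi-likelihood fit in R 4.3.3 on all 9 libraries, with Benjamini-Hochberg adjusted p under 0.05 over all tested genes; limma 3.58.1 and DESeq2 1.42.0 were alternatives. The fit was tested on simulated data. Members against culture have no test. A group at 0 was given a floor of 3 reads over the group, and ratios to it leave out the counting error of the other group. Context genes were named as up to 4 passing members of a list, most abundant first, with defining markers and others added after their values were seen. The members and lists were chosen with earlier results of these data known. No 2 libraries were alike within sampling noise. Values of 1 listed marker gene are not reported here.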

Additional observations from a re-analysis of the deposited data

How the results depend on the processing

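Lung against bone marrow gave 3806 genes, 2381 in a fit of the 6 libraries alone and 2414 to 4760 with each library left out; it was lowest without lung replicate 2 (2414) and bone marrow replicate 2 (2473). The counts of both tissues against culture, 8271 for lung and 9116 for bone marrow, stayed within 1.5 times under every alternative run. The log2 change of Ighm between lung and bone marrow, 0.24, ran from -0.30 to 0.87 with each library left out and was negative without bone marrow replicate 2 (-0.27) or lung replicate 3 (-0.30). With the replicate block in all 9 libraries it was 0.30 (edgeR adjusted p = 0.813); with the replicate block in the 6 libraries alone, added after seeing the data, it was 0.37 and passed (adjusted p = 0.0168). The block moved the count of genes to 4133 and 4553. Same-numbered lung and bone marrow libraries correlated at 0.03, 0.268 and 0.087 in their deviations from the group means over 15066 genes, and not every library correlated best with its own number, so the numbers were not taken as pairs. Igkc, at -0.04, turned to 0.11 with limma-voom, 0.0557 with the replicate block, 0.0562 with the block in the 6 libraries alone, 0.55 without bone marrow replicate 3 and 0.23 without lung replicate 3, over a range of -0.28 to 0.55. Jchain, at 0.04, turned to -0.0053 with upper quartile scaling, -0.23 without bone marrow replicate 1, -0.16 without bone marrow replicate 2 and -0.51 without lung replicate 2, over a range of -0.51 to 0.70. None of these Igkc and Jchain values passed. The culture level of Ighm was 310 CPM by library size only, against 318 CPM. Leaving out bone marrow replicate 3 brought the summed level of the other 8 members in bone marrow to 2.82 CPM, against 4.96 CPM, and the mean Ighm level in bone marrow to 28.5 CPM, against 44.9 CPM. Why these values moved was not tested. Genes of 1 to 3 reads carry wide counting error, and no limit of detection was measured for them.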
